A study of Homo sapiens with 288 samples.

Results

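The angiopoietin and TIE receptor system was followed in single cells through 5 genes: the receptors TEK (also called TIE2) and TIE1, the phosphatase PTPRB, and the ligands ANGPT1 and ANGPT2. All 5 were found by symbol among the 17492 protein-coding genes of the count tables. The cells were made from H1, an established human embryonic stem cell line. Endothelial cells (EC) were obtained in E8 medium with 5 ng/ml BMP4 and 25 ng/ml Activin A for 2 days, followed by VEGF and WNT for 3 days. Trophoblast-like cells (TB) were obtained in E7, which is E8 without FGF2, with 50 ng/ml BMP4 and SB431542. The labels name no sort and no separate cultures, so each cell type in each experiment was taken as 1 sample, cells were not used as replicates, and no p-value was computed. Any ± is the SD between cells. By the labels, the full-length cDNA of the same 96 cells, 45 EC and 51 TB, went into 3 sequencing experiments. In EQ the cDNA input was equalized, in EQ-Vary the volumes pooled were varied on purpose, and EQ-75% was a further run with equalized input at a lower depth, with 57351492 counts over its passing EC cells against 78370164 in EQ. The 3 experiments therefore repeat the sequencing, not the cells. By the paper, EQ-75% was a full replicate of EQ, whereas EQ-Vary differed from EQ in the pooling and may share its prepared libraries.

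After the study's own cell limits, 38 EC and 48 TB cells remained in EQ, 38 and 46 in EQ-Vary, and 39 and 50 in EQ-75%. Median totals per cell lay between 1499284 and 2025145 expected counts. Levels are given as CPM, the rounded count of a gene divided by the cell's total and multiplied by 1000000 (counts per 1000000), from EQ unless another experiment is named. A gene was called detected in a cell with a rounded count of at least 1. The labels were checked against markers. Of 15 endothelial markers, 14 were at least 10-fold higher in EC, led by KDR at 1600 ± 710 CPM, PECAM1 at 1317 ± 883 CPM and CD34 at 809 ± 579 CPM. The summed endothelial markers ran from 630 to 11073 CPM in EC and from 5.71 to 157 CPM in TB, with no overlap. Of 12 trophoblast markers tested, 8 were at least 10-fold higher in TB, among them VTCN1 at 1142 ± 468 CPM, TFAP2C at 388 ± 379 CPM and ENPEP at 268 ± 260 CPM, while CDX2 was detected in only 1 TB cell. The other 4 tested, GATA3, TFAP2A, CGA and ELF5, were less than 10-fold apart. GATA3 had 120 ± 189 CPM in EC against 236 ± 158 CPM in TB, and TFAP2A 70.7 ± 108 against 229 ± 143 CPM. CGA and ELF5 were low in TB, at 2.93 ± 3.11 and 3.43 ± 8.83 CPM.

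In blood vessels, angiopoietins bind TEK, a receptor tyrosine kinase of the endothelium. ANGPT1, made mainly by cells around the vessel, activates TEK and keeps vessels quiescent, whereas ANGPT2, made by endothelial cells themselves, acts as an antagonist or a weak agonist depending on context. TIE1 is a related receptor without a known high-affinity ligand that forms complexes with TEK and alters its signalling. PTPRB, also called VE-PTP, is a receptor phosphatase that removes phosphate from TEK and acts on the VE-cadherin complex at endothelial junctions.

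Both receptor genes were far higher in EC, and the stretches just upstream of their starts are shown because 4 of 6 ETS family transcription factors tested, which bind sites built on GGAA, were also at least 10-fold higher in EC. Of all genes tested 6.96% were, and the factors were picked for a known role in endothelium. The stretches are from the RefSeq promoter table on GRCh38.p14, plus strand, 5′ to 3′. TIE1 is given for the 250 bases before its start, chr1:43300732-43300981. TEK is given for the 166 bases, chr9:27108975-27109140, that precede its first base in GENCODE 44. Capitals mark GGAA or its reverse complement TTCC.
TIE1: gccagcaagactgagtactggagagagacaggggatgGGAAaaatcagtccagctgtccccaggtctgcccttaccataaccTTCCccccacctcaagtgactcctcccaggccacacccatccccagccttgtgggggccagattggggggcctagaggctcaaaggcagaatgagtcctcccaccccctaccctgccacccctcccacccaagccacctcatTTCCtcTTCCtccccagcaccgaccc
TEK: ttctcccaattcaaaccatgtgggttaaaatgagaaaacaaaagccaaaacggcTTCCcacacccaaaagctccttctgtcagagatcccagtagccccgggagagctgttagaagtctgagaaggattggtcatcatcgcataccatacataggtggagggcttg
GGAA, searched on both strands, matched 4 times in the TIE1 window of 250 bases and 3 times in the TEK window, of which 1 lies in the stretch printed. The median over 35116 RefSeq windows of the same length was 3, and 92.7% of them held at least 1 match. The longer form AGGAAG, which contains that core, occurred once in the TIE1 window, 21 bases before the start, and 28.7% of all windows held it. The longer form was not in the TEK window, and the GATA site AGATAA, present in 9.17% of windows, was in neither of the 2. The table has another TEK start, whose window held 6 matches to GGAA and 1 to the GATA site. PTPRB is named here without a sequence.

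Of the 5 members, 4 had a mean CPM at least 10-fold higher in EC than in TB, and none was higher in TB. Of the genes that averaged 1 CPM or more in either type, 6.96% were at least 10-fold higher in EC and 9.92% at least 10-fold higher in TB. The median log2 ratio of EC over TB over those 12751 genes was -0.07. The 4 calls were the same members in EQ-Vary, where 7.06% of genes were called higher in EC and 9.88% higher in TB, and in EQ-75%, where the shares were 6.74% and 10.2%. ANGPT1 had no count in any passing cell of EQ or EQ-Vary. The levels of every cell are drawn in the plot by gene and cell type.

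**Figure D1:**
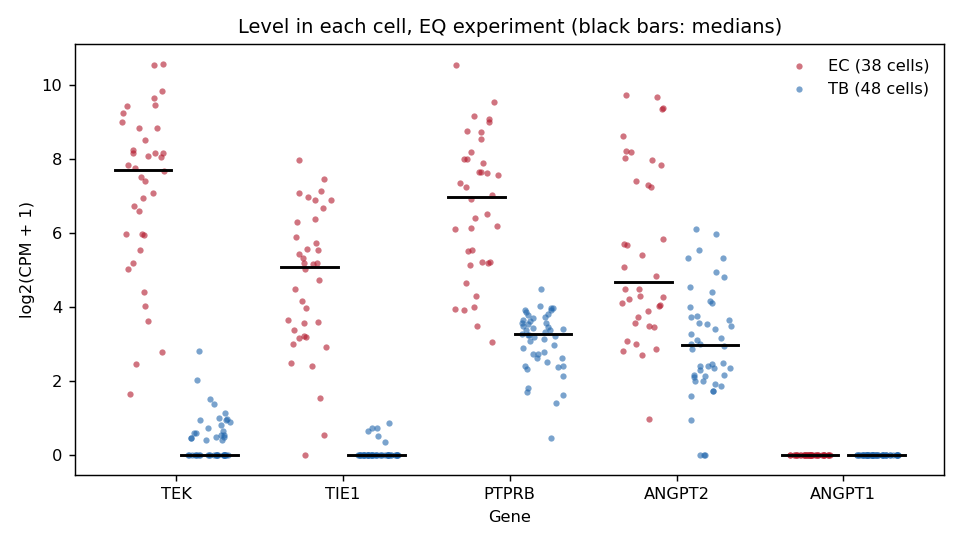
Level of each of the 5 genes in each passing cell of EQ, as log2(CPM + 1), for 38 EC cells (red) and 48 TB cells (blue), with black bars at the medians. TEK and TIE1 are near 0 in TB, PTPRB is low and even there, ANGPT2 in TB overlaps most EC cells, and ANGPT1 is at 0 throughout.

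TEK (ENSG00000120156, chromosome 9, 27109141 to 27230174, plus strand, GRCh38) was the most abundant member in EC. It was detected in all 38 EC cells, with a lowest value of 2.12, a median of 210 and a highest value of 1532 CPM, and a mean of 317 ± 372 CPM. In TB its mean was 0.517 ± 1.02 CPM, the median was 0 and the highest cell reached 6.07 CPM. The ratio of the means was 613. In EQ 35 of the 38 EC cells lay above the highest TB cell, TB cell 7, which left 3 EC cells at 2.12 to 5.87 CPM within the TB range. That TB value rests on 3 counts, and TB cell 7 had 0 in the other experiments. All 38 EC cells of EQ-Vary and all 39 of EQ-75% lay above every TB cell.

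TEK counts in TB were few. The 48 TB cells held 35 TEK counts in all (exact Poisson 95% interval 24.4 to 48.7) among 96608195, and no cell had more than 3. TEK was detected in 23 of 48 TB cells, 47.9% (exact binomial interval 33.3 to 62.8%), but at a count of at least 5 in none. The Poisson interval covers the counting of reads, which carry no molecular identifiers, and the binomial interval the drawing of cells from this 1 sample. Neither covers the spread between cultures. At so few counts per cell a rank correlation between experiments cannot be high: over 47 TB cells passing in both EQ and EQ-75%, Spearman's rho between the 2 experiments was 0.25, and over 37 EC cells, with far more counts, it was 0.99. Whether single TB cells hold a stable TEK level was not detectable at this depth. The mean in TB relative to EC was 0.163% for TEK, and for the 14 endothelial markers called higher in EC it ran from 0 to 2.94% with a median of 0.274%.

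TIE1 (ENSG00000066056, chromosome 1, 43300982 to 43323108, plus strand), the partner receptor, was the lower of the pair in EC. Its EC values ran from 0 through a median of 33.2 to 250 CPM, with a mean of 50.5 ± 57.5 CPM, and 37 of 38 EC cells held it. In TB the mean was 0.0715 ± 0.201 CPM and the highest cell had 0.816 CPM. Only 6 counts were found over the 48 TB cells (exact Poisson 95% interval 2.20 to 13.1), 1 in each of 6 cells. The ratio of the means was 707, which rests on those 6 counts. Of the EC cells, 36 were above the highest TB cell.

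The receptors were thus on together in most EC cells: 34 of 38 were above the highest TB cell for both TEK and TIE1, 1 for TEK alone and 2 for TIE1 alone. The TEK limit in this count is the 3 counts of TB cell 7. Cells highest in one receptor were not the highest in the other. EC cell 27, highest for TEK at 1532 CPM, had 42.3 CPM of TIE1, and EC cell 23, at 1488 CPM of TEK, had 4.28 CPM of TIE1. EC cell 29, highest for TIE1 at 250 CPM, had 169 CPM of TEK.

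PTPRB (ENSG00000127329, chromosome 12, 70515870 to 70637440, minus strand), the phosphatase acting on TEK, was detected in all 38 EC cells. Its lowest, median and highest EC values were 7.26, 125 and 1480 CPM, with a mean of 215 ± 281 CPM. All 48 TB cells also held it, from 0.369 through a median of 8.61 to 21.6 CPM, with a mean of 8.63 ± 4.36 CPM. The ratio of the means was 24.9, and 32 EC cells lay above the highest TB cell.

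The low PTPRB level in TB was even between cells. Its coefficient of variation there was 0.505, and of 1670 genes whose TB mean was within 1.5-fold of it only 2 had a lower value, with a median of 2.48. In EC the coefficient was 1.30, above that of 84.9% of genes of like level. Of the PTPRB values above 0, 95.8% in TB and 100% in EC were not whole numbers (further than 0.005 from one). RSEM writes such values where reads are shared between genes or transcripts, so the split of PTPRB reads is uncertain. For TEK and TIE1 in TB the share was 0%, and in EC it was 71.1% and 48.6%. The part of shared reads in the TB level of PTPRB was not tested.

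ANGPT2 (ENSG00000091879, chromosome 8, 6499632 to 6563409, minus strand), the ligand that endothelial cells make, had the smallest ratio of the 4 and the widest relative spread in EC. It was detected in all 38 EC cells, with a lowest value of 0.972, a median of 24.5 and a highest value of 858 CPM, and a mean of 150 ± 234 CPM. In TB 45 of 48 cells held it, from 0 through a median of 6.88 to 67.6 CPM, with a mean of 12.4 ± 15.3 CPM. The ratio of the means was 12.1, close to the 10-fold limit, and over 8 other ways of processing it ran from 10.5 to 13.2.

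The EC mean of ANGPT2 rested on a minority of cells. Above every TB cell lay 13 EC cells, from 151 to 858 CPM, and the other 25, from 0.972 to 56.7 CPM, were within the TB range, with no EC cell between 56.7 and 151 CPM. The 5 highest cells gave 59.6% of the summed EC CPM, against 45.2% for TEK, 43.1% for TIE1 and 47.1% for PTPRB. The high cells recurred: all 13 were above every TB cell again in EQ-Vary, as were the 12 of them that passed in EQ-75%. In EQ-Vary EC cell 23 also lay above every TB cell, at 78.0 CPM against 49.9 CPM in EQ. No EC cell there lay between 60.4 and 78.0 CPM or between 78.0 and 159 CPM. In EQ-75% none lay between 64.3 and 150 CPM.

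Variation of ANGPT2 between TB cells also recurred. Over the same TB cells rho was 0.90 between EQ and EQ-Vary (46 cells) and 0.87 between EQ and EQ-75% (47 cells), against 0.58 and 0.40 for PTPRB and 0.16 and 0.25 for TEK. ANGPT2 overlaps MCPH1, a gene on the opposite strand, by 78 bases of protein-coding exon (6499852 to 6499929), and the kit does not mark strand, so reads in that stretch cannot be assigned by strand. MCPH1 was at 45.6 ± 42.2 CPM in EC and 51.6 ± 50.95 CPM in TB. Its rho with ANGPT2 was 0.22 over EC cells and 0.38 over TB cells. Of the ANGPT2 values above 0, 97.8% in TB and 100% in EC were not whole numbers. The part of MCPH1 reads in the TB level of ANGPT2 was not tested.

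ANGPT1 (ENSG00000154188, chromosome 8, 107249482 to 107498055, minus strand), the activating ligand of TEK, was not detected in either cell type in EQ. No count was found in 38 EC cells, which by a limit of 3 cells allows up to 7.89% of cells with a count, or in 48 TB cells, which allows up to 6.25%. These limits concern cells with a count, not cells that express the gene. A total of 3 counts over the group would be 0.0383 CPM in EC and 0.0310 CPM in TB. In EQ-75% 1 library, TB cell 48, held 36 counts (33.1 CPM), and all other passing cells held none. That cell had 8575 counts in EQ and 7796 in EQ-Vary, too few to pass, and 1086333 in EQ-75%. Its summed trophoblast markers in EQ-75% were 422 CPM, below the 1089 to 4660 CPM of the other 49 TB cells, and its mural and mesenchymal marker sum of 447 CPM was also below their lowest value of 534 CPM. In the shallow libraries of the same label the trophoblast sum was 2566 CPM in EQ and 2185 CPM in EQ-Vary, and the mural and mesenchymal sum 3150 and 3984 CPM. Their endothelial sums were 700 and 771 CPM, against 23.9 CPM in EQ-75%. Passing cells of EQ reached at most 157 CPM in TB and had at least 630 CPM in EC. The marker levels under this label thus differed between experiments, and the shallow libraries held counts of both marker sets, so they are an uncertain reference for this cell. The labels give all 3 libraries the same cDNA, and whether that holds for this cell was not tested. Without TB cell 48, ANGPT1 was at 0 in every passing library of EQ-75%.

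Per kilobase of exon in GENCODE 44, which allows genes to be compared, the mean levels in EC were 65.9 ± 77.5 CPM per kb for TEK, 22.05 ± 34.5 for ANGPT2, 16.2 ± 21.2 for PTPRB and 12.7 ± 14.4 for TIE1. By medians the order below TEK changed: TEK had 43.6 CPM per kb, PTPRB 9.43, TIE1 8.31 and ANGPT2 3.60. ANGPT2, PTPRB and TIE1 differed in mean by less than the spread of any of them. TEK was the highest of the 4 per kb in 22 of 38 EC cells, PTPRB and ANGPT2 in 6 each, and TIE1 in 4. In TB the means per kb were 1.82 ± 2.25 for ANGPT2, 0.650 ± 0.329 for PTPRB, 0.107 ± 0.212 for TEK and 0.0179 ± 0.0503 for TIE1.

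The spread of each expressed member between EC cells was larger than its spread between the libraries of 1 cell. Over 37 EC cells that passed in all 3 experiments, the SD between cells on the log2(CPM + 1) scale was 2.31 for TEK, 1.94 for PTPRB, 2.42 for ANGPT2 and 1.82 for TIE1. The SD between the 3 libraries of a cell was 0.29, 0.26, 0.32 and 0.52 in the same order. Since EQ and EQ-Vary may share prepared libraries, this SD may hold less than the full spread of library preparation. The ratio of these SDs was 8.03 for TEK, higher than for 91.8% of 11485 genes, and 3.49 for TIE1, below the median of 4.98 over those genes.

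TIE1 was lower in EQ-75% than in EQ in the same EC cells. The mean difference was -0.34 ± 0.63 on the log2(CPM + 1) scale over 37 cells, and 28 cells were lower and 9 higher. TIE1 averaged 36.3 CPM in EQ-75% and 45.1 CPM in EQ over these cells. The median difference of all 11485 genes was -0.12, and 10.1% of them fell as far or further. TEK differed by -0.06 ± 0.43, PTPRB by -0.08 ± 0.39 and ANGPT2 by -0.19 ± 0.47. Between EQ-Vary and EQ the 4 differences were between -0.06 and 0.03. The plot of the same cell in both experiments shows the shift against the line of equal values.

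**Figure D2:**
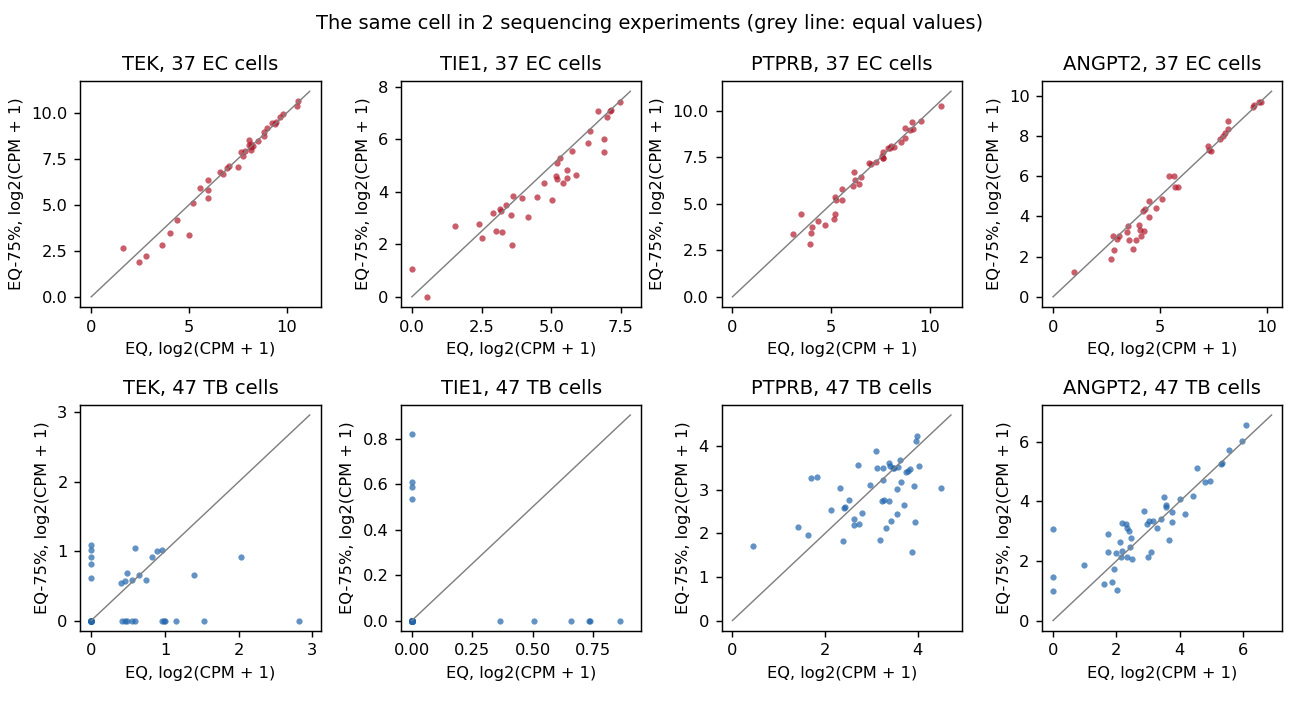
Each point is 1 cell, with log2(CPM + 1) in EQ on the x axis and in EQ-75% on the y axis, for 4 genes in 37 EC cells (upper row) and 47 TB cells (lower row); the grey line marks equal values. EC values lie along the line, with most TIE1 points under it, while in TB ANGPT2 and, more loosely, PTPRB recur and TEK and TIE1 have too few counts to tell.

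Among EC cells the 4 expressed members were at most weakly related in level. Spearman's rho over the 38 cells of EQ was -0.18 for TEK and TIE1, 0.03 for TEK and PTPRB, -0.12 for TEK and ANGPT2, 0.26 for TIE1 and PTPRB, 0.20 for TIE1 and ANGPT2, and -0.08 for PTPRB and ANGPT2. These values describe 38 cells that share 1 preparation. Over 8898 genes, the middle 50% of rho ran from -0.06 to 0.15 for TIE1, from -0.20 to 0.06 for PTPRB and from -0.06 to 0.18 for ANGPT2, so TIE1 with PTPRB and TIE1 with ANGPT2 lay above the upper quartile of either gene while the other 4 pairs did not. TIE1 with PTPRB had 0.19 and 0.25 in EQ-Vary and EQ-75%, and TIE1 with ANGPT2 0.26 in each. Without the 2 cells farthest from the median of TIE1, TIE1 with ANGPT2 fell to 0.085, and it was 0.17 after thinning to 500000 counts. TIE1 with PTPRB had 0.24 and 0.32 in these 2 settings. The place of TIE1 with ANGPT2 above the quartiles thus depended on few cells. The 6 pairs ran from -0.11 to 0.26 in EQ-Vary and from -0.18 to 0.26 in EQ-75%. Above the highest TB cell were 11 EC cells for all 4 genes, 20 for 3 of them, 5 for 2 and 2 for 1. TEK and ANGPT2, receptor and ligand, were both above it in 12 cells.

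**Figure D3:**
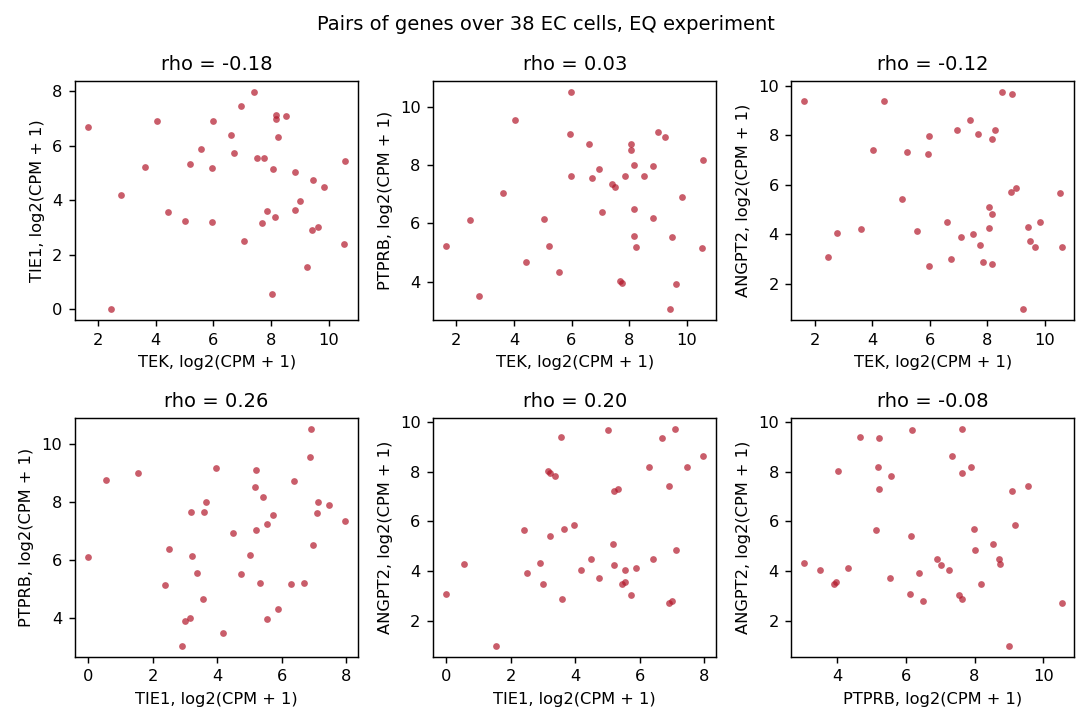
Each panel plots 2 genes against each other as log2(CPM + 1) over 38 EC cells of EQ, with Spearman's rho of the CPM above it. The 6 values lie between -0.18 and 0.26.

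Most alike to TEK over the EC cells, among 8898 other genes detected in at least 50% of them, were KIAA0355 (rho 0.60), NOL4L (0.57), DAB2 (0.56), PGGT1B (0.55) and CDK2AP2 (0.55). In EQ-Vary these 5 had rho between 0.45 and 0.60, and in EQ-75% between 0.49 and 0.64. The middle 50% of all genes had a rho with TEK between -0.18 and 0.08. The gene of VE-cadherin, CDH5, stood at place 12 with 0.50, at place 8 with 0.51 in EQ-Vary and at place 9 with 0.50 in EQ-75%. The median rho of TEK with 14 endothelial markers was 0.11, and CDH5 was the highest of the list. The 4 pluripotency markers detected in at least 50% of EC cells all had a negative rho with TEK, with a median of -0.31 and the lowest, -0.53, for NANOG. Their median was -0.23 in EQ-Vary and -0.27 in EQ-75%. With ANGPT2 all 4 were positive, with a median of 0.19, and the median was 0.06 with TIE1 and -0.14 with PTPRB. The part of these markers in the members' spread between EC cells was not tested.

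For TIE1 the 5 genes were CCDC59 (rho 0.61), GABPB1 (0.56), ZC2HC1A (0.55), NFU1 (0.53) and RANBP3 (0.53). For PTPRB they were DTD1 (0.59), TMEM251 (0.56), TMSB10 (0.53), TAGLN2 (0.50) and GBE1 (0.49). For ANGPT2 they were ANTXR2 (0.61), ADRA2A (0.61), RAB14 (0.57), PREX2 (0.56) and TSEN15 (0.55). Each is among the top of 8898 values over 38 cells, and some were lower in the other experiments: CCDC59 had 0.54 in EQ-Vary and 0.37 in EQ-75%, and TMEM251 had 0.37 in both. The lists of the 4 members share no gene. Median rho with the endothelial markers was 0.06 for TIE1, 0.11 for PTPRB and 0.05 for ANGPT2.

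Of technical and cell cycle measures, the total count had rho with the members between -0.24 and 0.11, and the number of genes detected between -0.21 and 0.24. The summed CPM of 10 mitosis genes had rho of -0.37 with PTPRB and between -0.19 and -0.02 with the other 3. PTPRB also had rho of 0.32 with the share of counts in a cell's top 50 genes. The part of these measures in the PTPRB level was not tested.

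Among 60 other genes of the pathway, 57 were in the tables and 52 passed 1 CPM in either type, of which 16 were at least 10-fold higher in EC (30.8%, against 6.96% of all genes), 3 at least 10-fold higher in TB and 33 neither. Of the 16, 10 are from the list of transcription factors, which was picked for a known role in endothelium. Of the same 16, 5 (CDH5, KDR, ECSCR, ERG and SOX17) are also among the endothelial markers by which the EC label was checked. The share of 30.8% is thus not independent of that choice or of that check. The median log2 ratio of the 52 was 0.995. The number higher in EC was again 16 in both other experiments. The counts differed by role, as the plot of ratios by list shows.

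**Figure D4:**
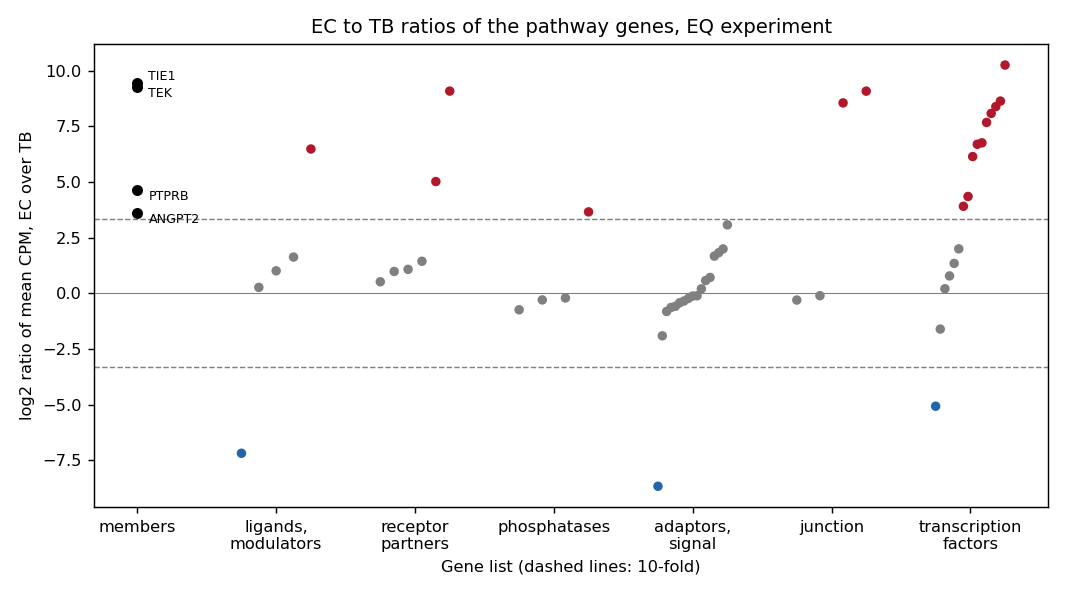
Log2 ratio of mean CPM, EC over TB in EQ, of the 4 expressed members (black) and of 52 pathway genes in 6 lists, with red for at least 10-fold higher in EC, blue for at least 10-fold higher in TB, grey for neither, and dashed lines at 10-fold. Most red points are transcription factors, and the adaptors lie around 0.

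Downstream of TEK, of 17 adaptors and signalling genes tested, none was 10-fold higher in EC and 1, GRB7, was 10-fold higher in TB (0.0245 against 9.92 CPM), named after its value was seen. The other 16 ranged widely within the limit, from PIK3R1, a PI3-kinase subunit (26.7 ± 58.3 in EC against 100.1 ± 121 CPM in TB, a ratio of 0.266), to the adaptor SHC1 (317 ± 261 against 37.6 ± 59.6 CPM, a ratio of 8.42), with FOXO1, a factor held back by TEK signalling, at a ratio of 3.98, NOS3, the endothelial nitric oxide synthase, at 3.54 and TNIP2 at 3.18. These 5 were also chosen after their values were seen. Other ligands and modulators were low: 1 of 5 tested was higher in EC and 1 in TB. ANGPT4, a further angiopoietin, was detected in 37 of 38 EC cells and 44 of 48 TB cells. Its means were 9.50 ± 5.70 CPM in EC and 4.72 ± 4.84 CPM in TB. LECT2 was detected in 36 EC and 42 TB cells, at 6.64 ± 6.75 and 5.52 ± 6.25 CPM. Both were named after their values were seen. Of 6 receptor partners and shedding genes tested 2 were higher in EC: ITGA5, the integrin chain that pairs with ITGB1 as fibronectin receptor, at 418 ± 352 against 12.9 ± 28.6 CPM, and the endothelial membrane protein ECSCR at 415 ± 260 against 0.766 ± 1.62 CPM.

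Among 4 other phosphatases tested, PTPRM, a receptor phosphatase of cell contacts, was the 1 higher in EC, at 112 ± 203 against 8.89 ± 17.6 CPM, a ratio of 12.6. Of the 4 genes at the junction where PTPRB acts, CDH5 (407 ± 399 against 0.752 ± 1.27 CPM) and KDR, a VEGF receptor (1600 ± 710 against 4.27 ± 5.45 CPM), were higher in EC. JUP and CTNNB1, the catenins plakoglobin and beta-catenin, were neither, with ratios of 0.810 and 0.929.

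Transcription factors known to act on endothelial receptor genes were the list with the most calls, 10 of 16 higher in EC and 1 higher in TB. Of all genes 6.96% and 9.92% were so called. The list was picked for a known role in endothelium, and ERG and SOX17 are also endothelial markers, so many calls in EC are no independent result. Of the ETS family 4 of 6 were called higher in EC: FLI1 had 525 ± 328 against 1.57 ± 3.56 CPM, ELK3 343 ± 457 against 3.31 ± 6.79 CPM, ETS1 236 ± 217 against 15.7 ± 33.2 CPM and ERG 202 ± 244 against 0.510 ± 0.995 CPM. The other 2, ETS2 at 30.96 ± 63.5 against 12.2 ± 32.1 CPM and ELF1 at 170.3 ± 189.9 against 42.7 ± 62.4 CPM, had ratios of 2.54 and 3.99 and were neither. MEF2C, a factor of vascular and muscle development, had 288 ± 322 against 1.07 ± 3.41 CPM, and TAL1, a factor of blood and endothelial precursors, 212 ± 340 against 1.96 ± 2.42 CPM. EPAS1, the hypoxia factor HIF-2 alpha, was the 1 higher in TB, at 21.6 ± 72.7 CPM in EC against 725 ± 299 CPM in TB.

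Cells around the vessel are the usual source of ANGPT1, and their markers were checked beside its 0 counts. Of 9 mural and mesenchymal markers tested, 1 was at least 10-fold higher in EC and 3 in TB. The one in EC was RGS5, at 794 ± 418 against 4.56 ± 10.2 CPM. The 3 in TB were LUM at 10.2 ± 9.28 in EC against 3042 ± 2423 CPM in TB, COL1A1 at 21.8 ± 84.5 against 280 ± 305 CPM and TAGLN at 10.4 ± 27.7 against 121 ± 149 CPM. The pericyte receptor PDGFRB was at 14.9 ± 63.1 CPM in EC, held by 11 of 38 cells, and at 14.5 ± 27.1 CPM in TB, held by 38 of 48, and the list summed to 53.3 to 2050 CPM in EC and 468 to 9512 CPM in TB. Of blood markers, SPI1 and CD48 were at 0 in both types, and the highest in EC was PTPRC at 18.9 ± 23.8 CPM against 12.9 ± 14.8 CPM in TB. The highest pluripotency marker in EC was NANOG at 83.2 ± 239 against 33.99 ± 29.8 CPM, while SOX2 was at 0 in all 38 EC cells. The part of other cell types in the members' levels was not tested.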

How the data were processed

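Single cells were captured on a Fluidigm C1 chip and their cDNA made with the SMARTer kit, which keeps no strand and adds no molecular identifiers. The deposited expected counts are estimates per gene that the authors made by trimming reads to one length, mapping them to protein-coding genes of GRCh38 with Bowtie 1.2.3 and estimating with RSEM 1.2.31 (versions also in the submitters' processing notes, with CASAVA 1.8.2). Estimates were rounded to whole counts here and scaled to CPM. Cells with a log10 total under 5.4 or over 31% of counts in the top 50 genes were left out, as in the study. All sample columns were mapped by name.

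Each cell type in each experiment counted as 1 sample, so values are described without a test. A gene was called at a 10-fold ratio of mean CPM, among genes with a mean of at least 1 CPM in EC or TB, and a group without counts was set to 3 counts. Named genes were the 5 members, the pathway genes past 10-fold (the 12 highest) and the 5 genes most alike to each member. Also named were the 3 leading endothelial and trophoblast markers and the leading marker of each other list. Pathway genes named outside this rule are JUP, CTNNB1, GRB7, PIK3R1, SHC1, FOXO1, NOS3, TNIP2, ETS2, ELF1, SOX17, ANGPT4 and LECT2. Other names outside it are PDGFRB, LUM, COL1A1, TAGLN, SPI1, CD48, SOX2, CDX2, GATA3, TFAP2A, CGA, ELF5 and MCPH1. Members and lists were chosen with earlier results of these data known. Alternatives were all cells, a limit of 5.1, unrounded counts, scran 1.30.0 size factors, thinning to 500000 counts (37 EC and 46 TB cells), the other experiments and other folds or filters. Steps were tested on simulated data. Python 3.11.15, scipy 1.17.1, R 4.3.3 and GENCODE 44 were used. Pairing by cell number comes from the labels, which give the same cDNA to the 3 experiments.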

Additional observations from a re-analysis of the deposited data

Results flagged for a closer look

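Signals were also seen in libraries outside the comparisons. Of the 7 EC cells left out of EQ, 6 had a TEK level above the highest TB cell, 4 a TIE1 level, 6 a PTPRB level and 3 an ANGPT2 level. Of these libraries 3 (EC cells 1, 14 and 41) had only 11418 to 13967 counts, where 1 count is over 70 CPM and so passes those limits, and the other 4 had 176272 to 336862 counts. The TB cells left out were as uncertain: TB cell 28, with 12442 counts, had 161 CPM of TEK and 241 CPM of PTPRB, and only EC cell 1 was above it for TEK (263 CPM) or for PTPRB (614 CPM). In EQ-75%, where these cells passed, TB cell 28 had 0 CPM of TEK and 14.6 CPM of PTPRB, and EC cell 1 had 11.8 and 159 CPM. EC cell 14, with 150 CPM of TEK and 75.15 CPM of PTPRB in EQ, was higher there, at 470 and 368 CPM. EC cell 44, with 199769 counts of which 57.6% were in its top 50 genes, had 286 ANGPT2 counts (1432 CPM), above the 858 CPM of the highest cell that passed. Among all libraries of EQ and the passing libraries of the other experiments, ANGPT1 was found in 1 alone, the 36 counts of TB cell 48 in EQ-75%. That cell did not pass in EQ or EQ-Vary, the basis of the main values. No cause of these values was tested.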

How the results depend on the processing

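The count of 4 members at least 10-fold higher in EC was the same under all 10 alternatives fixed at the start and, in one chosen after seeing the data, in EQ-75% without TB cell 48. Some of the 10 could not have changed it. A fold of 4 or no filter on low values cannot lower the count, and ANGPT1, without counts in EQ, cannot be added. The limit of 5.1 left every ratio as it was. Ratios kept their direction throughout. The TEK ratio of 613 was 77.7 with all cells, where TB cell 28, with 2 TEK counts among 12442, is at 161 CPM, and 1262 in EQ-75%, where the TB mean was 0.257 CPM. TB cell 28 passed in EQ-75% and had no TEK count there. The TIE1 ratio was 215 after thinning to 500000 counts, and the PTPRB ratio 14.4 with all cells. Detection in TB depended on depth and limit: with a count of at least 5 it was 0% for TEK and 0% for TIE1, after thinning 23.9% for TEK, and for ANGPT2 it was 100% in both other experiments. The rho of TIE1 and PTPRB was 0.067 over all 45 EC cells. Without pairing by cell number (no replicate block), TIE1 in EQ-75% differed from EQ by -0.40, against -0.34 with it, and with log2(CPM + 0.1) by -0.34. The other ratios and within-cell differences moved by less than the spread between cells, and the other detection shares stayed within their binomial interval. Rank correlations were held to a limit set only by the number of EC cells. Under it TIE1 with ANGPT2 went from 0.20 to 0.085 without the 2 cells farthest from the median of TIE1. With 1 sample per group, the spread between cultures is unknown.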
